A study of Mus musculus with 8 samples.

Results

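The catenins, the destruction complex that degrades beta-catenin and the TCF/LEF transcription factors form the core of canonical Wnt signalling, and 10 of their genes were examined in mouse lung. They were the catenin genes Ctnnb1, Jup, Ctnna1 and Ctnnd1, the destruction complex genes Apc, Axin1 and Gsk3b, and the factor genes Lef1, Tcf7l1 and Tcf7l2. They were chosen by symbol, and all 10 were found among the 19937 genes with values, each with 1 probe set. The data were 8 Affymetrix arrays of lung RNA from untreated mice at postnatal day 21, 4 from mice with stabilized beta-catenin and 4 from mice with a beta-catenin knockout. The sources used here do not give the cells in which each allele was altered, the exons removed or the Cre driver, and unmodified lungs were not analysed here, so each difference is between 2 altered genotypes. The replicates are described as biological, and the labels record all mice as male.

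Beta-catenin links cadherins to the actin cytoskeleton through alpha-catenin, and its free pool carries the Wnt signal to the nucleus. Without a Wnt signal, the scaffolds Apc and Axin1 hold it for phosphorylation by Gsk3b and a casein kinase, and it is ubiquitinated and degraded. When this step is blocked, beta-catenin accumulates and binds TCF/LEF factors at target genes. This control acts on the protein, and the arrays measure transcripts only.

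Of the 10 genes, Lef1 alone passed the test, and it was lower in stabilized lungs. The test was limma's moderated linear model with p-values adjusted across the whole array by Benjamini-Hochberg, a gene being called below 0.05, and differences are stabilized minus knockout on the log2 scale. By this rule 1 of the 10 genes (10%) was called, against 9.62% of all genes, 4.65% higher and 4.96% lower, so the share called is near that of the whole array and is no result about these genes as a set. The other 9 genes had differences between -0.15 and 0.18, and 2 of them had an unadjusted p under 0.05, which 24.7% of all genes had. The median difference was 0.01 over the 10 genes and -0.01 over all genes. All 10 lay above the array medians of 5.97 to 6.03 and below the array maxima of 13.35 to 13.67 in mean log2 expression.

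**Figure D1:**
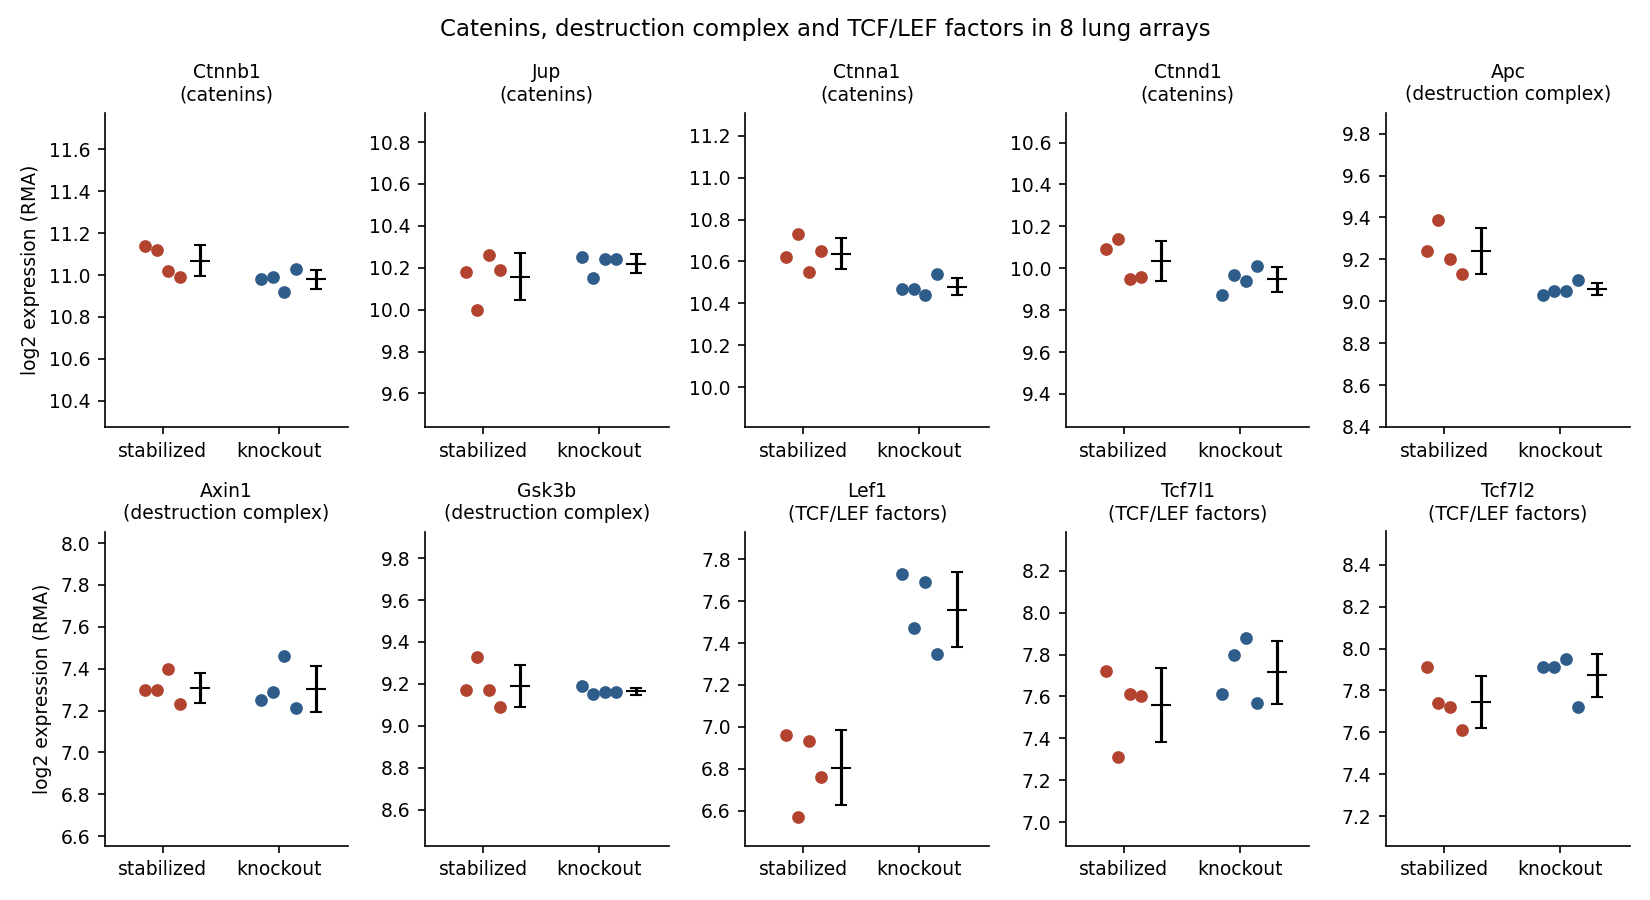
Each panel plots the log2 expression (RMA) of a gene in the 4 stabilized arrays (red, replicates 1 to 4 from left to right) and the 4 knockout arrays (blue), with the group mean and SD beside them. All panels span the same log2 range, and only in Lef1 are the groups far apart (6.57 to 6.96 against 7.35 to 7.73), while Apc and Ctnna1 show narrow gaps.

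Some facts of the arrays touch every value. Markers of the lung were present, with mean log2 levels in stabilized and knockout lungs of 13.22 and 13.18 for Sftpc (alveolar type 2 cells), 12.09 and 11.92 for Ager (alveolar type 1 cells) and 10.73 and 10.68 for Pecam1 (endothelium). Xist was between 10.36 and 10.59 in stabilized replicates 1 and 4 and knockout replicates 1 and 3, and between 4.18 and 4.62 in the other arrays, where Kdm5d, Eif2s3y and Uty of the Y chromosome were high. The recorded sex was therefore not borne out in 4 arrays, 2 in each group, and for Apc and Lef1 the difference is also given within either pattern. Leaving out stabilized replicate 1 or knockout replicate 3 reduced the genes called from 1917 to 1216 or 1235, and once all arrays were centred on their medians 64.4% of the genes called were higher in stabilized lungs, against 48.4% without it.

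Among the catenins, the transcript of beta-catenin itself did not pass the test. Ctnnb1 read 11.14, 11.12, 11.02 and 10.99 in stabilized and 10.98, 10.99, 10.92 and 11.03 in knockout replicates 1 to 4. The groups overlapped, and stabilized minus knockout came to 0.09 ± 0.06 (limma SE with n = 4 per group, adjusted p = 0.42). Its 95% interval reached from -0.05 to 0.23, or from 0.967 to 1.17 as a stabilized to knockout ratio of whole-lung transcript. Which part of the transcript the probes cover relative to the altered exons is not given in the sources used here, so the value does not check the genotypes.

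Ctnna1 encodes alpha-E-catenin, the actin-binding partner of beta-catenin. Its log2 levels were 10.62, 10.73, 10.55 and 10.65 in stabilized and 10.47, 10.47, 10.44 and 10.54 in knockout replicates 1 to 4. All stabilized arrays lay above all knockout arrays, the closest reading 10.55 and 10.54, and the difference of 0.16 ± 0.06 (SE, n = 4) did not pass the test (limma adjusted p = 0.15). Groups failed to overlap in 3 of the 10 genes, against 16.9% of all genes. In Ctnna1 and Apc the stabilized arrays were the higher ones, as in 9.06% of all genes, and in Lef1 the lower ones, as in 7.82%.

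Jup encodes plakoglobin, a close relative of beta-catenin that sits in desmosomes as well as adherens junctions. It read 10.183, 10.004, 10.259 and 10.185 in stabilized and 10.246, 10.154, 10.237 and 10.237 in knockout replicates 1 to 4. The groups overlapped, with a difference of -0.06 ± 0.07 (SE, limma adjusted p = 0.63) and a 95% interval from -0.21 to 0.09. The plakoglobin transcript thus showed no detectable difference between the genotypes at this number of arrays.

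Ctnnd1 encodes p120-catenin, which holds cadherins at the cell surface. Its levels were 10.09, 10.14, 9.95 and 9.96 in stabilized and 9.87, 9.97, 9.94 and 10.01 in knockout replicates 1 to 4, and they overlapped. The difference was 0.09 ± 0.07 (SE, limma adjusted p = 0.47). Of the 4 catenin genes 0 passed the limma test and 1, Ctnna1, had an unadjusted p under 0.05, a share near the 24.7% of all genes.

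In the destruction complex, Apc had the largest difference but did not pass either. Apc encodes the large scaffold whose loss activates the pathway in intestinal tumours. It read 9.24, 9.39, 9.20 and 9.13 in stabilized and 9.03, 9.05, 9.05 and 9.10 in knockout replicates 1 to 4. All stabilized arrays were above all knockout arrays, and the difference of 0.18 ± 0.07 (SE, n = 4 per group) had a limma adjusted p of 0.11 and a 95% interval from 0.04 to 0.33. Within the arrays of high Xist the difference was 0.15, and within those of low Xist it was 0.22, from 2 arrays per group each.

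Axin1 encodes the scaffold whose amount is thought to limit the complex. Its levels were 7.30, 7.30, 7.40 and 7.23 in stabilized and 7.25, 7.29, 7.46 and 7.21 in knockout replicates 1 to 4. The means were 7.31 ± 0.07 and 7.30 ± 0.11 (SD, n = 4), and the 95% interval of the difference ran from -0.15 to 0.16. The difference had no stable sign, turning to -0.01 when quantile normalization was repeated.

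Gsk3b encodes the kinase that marks beta-catenin for degradation. It read 9.17, 9.33, 9.17 and 9.09 in stabilized and 9.19, 9.15, 9.16 and 9.16 in knockout replicates 1 to 4. The knockout arrays spanned 0.04 and lay inside the stabilized range. The difference was 0.03 ± 0.07 (SE, limma adjusted p = 0.85) and became -0.03 with repeated quantile normalization and -0.02 without stabilized replicate 2.

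**Figure D2:**
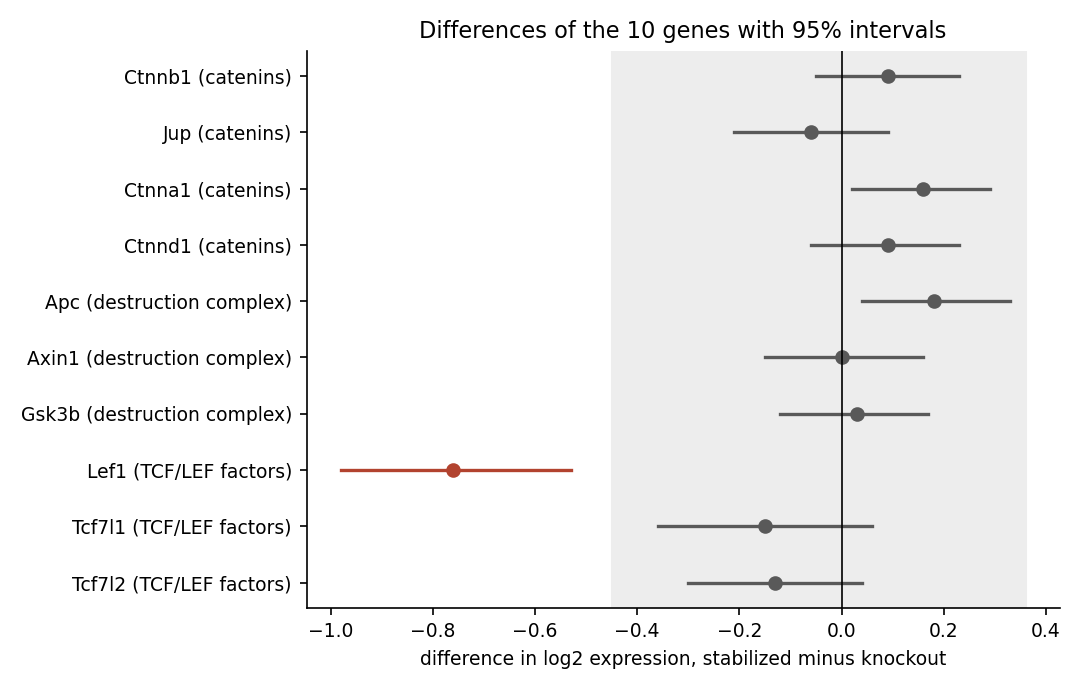
Points are the differences in log2 expression, stabilized minus knockout, and lines their 95% intervals from limma (n = 4 per group), with the gene past the adjusted threshold in red. The grey band holds the middle 95% of all genes, from -0.45 to 0.36, and Lef1 lies outside it at -0.76 while the other 9 genes lie inside.

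The TCF/LEF factors bind the same short DNA motif and differ in the cells that express them. Lef1, a factor of developing lymphocytes and of many embryonic tissues, is also widely used as a transcriptional target of the pathway. Its log2 levels were 6.96, 6.57, 6.93 and 6.76 in stabilized replicates 1 to 4. In knockout replicates 1 to 4 they were 7.73, 7.47, 7.69 and 7.35. Every stabilized array was below every knockout array, the closest reading 6.96 and 7.35. The SD of 0.18 within each group was small beside the distance between the means of 6.80 and 7.56. The ranges within the groups were 0.39 and 0.38.

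Stabilized minus knockout came to -0.76 ± 0.10 for Lef1 (SE with n = 4 per group, limma adjusted p = 6.6e-04), a 1.69-fold lower level in stabilized lungs with a 95% interval from -0.98 to -0.53. Lef1 ranked 277 of 19937 genes by p. The exact two-sided permutation p was 0.029, the smallest that 4 against 4 arrays can give. The difference was -0.85 within the arrays of high Xist and -0.66 within those of low Xist. With each array left out in turn it lay between -0.83 and -0.68, and the largest limma adjusted p was 0.0035.

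The pathway's motif was looked for ahead of the annotated Lef1 starts because Lef1 was the gene past the threshold and is itself used as a target. The motif was searched as CTTTGAA, as CTTTGAT, as CTTTGTA and as CTTTGTT on both strands in the 250 bases before each start in RefSeq's mouse annotation (GRCm38.p6). Of 4 Lef1 windows, the first 2 of which overlap, 1 held a match. Over all members with windows, 2 of 13 windows held a match, against 14.8% of 32851 windows of all genes. The first window (chr3:131110047-131110296, plus strand) and the window with the match (chr3:131156044-131156293, plus strand) are shown 5′ to 3′, with the match, CTTTGTA on the opposite strand and starting 147 bases before that start, in capitals.
Lef1 start 1: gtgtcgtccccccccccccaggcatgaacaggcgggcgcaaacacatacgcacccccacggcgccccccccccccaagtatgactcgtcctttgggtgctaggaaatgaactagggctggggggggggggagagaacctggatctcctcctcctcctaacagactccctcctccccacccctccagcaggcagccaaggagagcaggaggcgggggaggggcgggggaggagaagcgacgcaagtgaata
Lef1 start 4: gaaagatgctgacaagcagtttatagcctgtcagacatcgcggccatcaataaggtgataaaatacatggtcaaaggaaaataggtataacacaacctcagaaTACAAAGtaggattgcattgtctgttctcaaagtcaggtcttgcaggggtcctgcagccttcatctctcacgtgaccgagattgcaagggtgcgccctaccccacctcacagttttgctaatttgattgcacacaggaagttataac
These windows describe the annotation, and no array value separates the starts, since the gene has 1 probe set. Of the other members with windows, 1 of 2 windows of Tcf7l2 held CTTTGTT on the same strand, 14 bases before its start, and the windows of Ctnnb1, Jup, Ctnnd1, Gsk3b and Tcf7l1 held none. Apc, Ctnna1 and Axin1 had no window in the table used.

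Tcf7l1, known mainly as a repressor of pathway targets, read 7.72, 7.31, 7.61 and 7.60 in stabilized and 7.61, 7.80, 7.88 and 7.57 in knockout replicates 1 to 4. The groups overlapped, and stabilized replicate 2 was the lowest array. The difference of -0.15 ± 0.10 (SE, limma adjusted p = 0.37) was -0.07 without that array. Tcf7l2, the factor best known from gut epithelium, read 7.91, 7.74, 7.72 and 7.61 in stabilized and 7.91, 7.91, 7.95 and 7.72 in knockout replicates. These groups overlapped too, with a difference of -0.13 ± 0.08 (SE, limma adjusted p = 0.35).

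Because a gene past the threshold beside genes short of it is not thereby shown to differ from them, the change of Lef1 was set against each of the other 9 genes within arrays, a test chosen after the values were seen. The log2 difference between Lef1 and the other gene was lower in every stabilized than in every knockout array for all 9. The change of Lef1 minus that of the other gene was -0.61 for Tcf7l1, -0.63 for Tcf7l2 and -0.94 for Apc on the log2 scale. Each exact two-sided permutation p was 0.029, also after Benjamini-Hochberg adjustment over the 9 comparisons, and no smaller value is possible with 4 against 4 arrays. The adjustment cannot change equal p-values, and all 9 comparisons share the Lef1 values. Lef1 was picked for its gap between the groups, so the separation was largely built in and the p-values add no support. Within the family, the difference of Lef1 was -0.76, beside -0.15 for Tcf7l1 and -0.13 for Tcf7l2. Tcf7, the fourth family member, was not analysed here.

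Like Lef1, the markers of immune cells were lower in stabilized lungs, as were those of cardiac muscle, ciliated and club cells given below. Of 14 T and NK cell markers 0 rose, 12 fell and 2 did not pass (median -0.93), and of 11 B cell markers all fell (median -1.14). Over all genes 4.96% were called lower, and the median was -0.01. Cd3e, part of the T cell receptor, fell by 0.85 ± 0.15, and Cd79a, part of the B cell receptor, fell by 1.86 ± 0.12 (SE, n = 4 per group). The summed level of the T and NK cell markers was 9.79 to 10.16 in stabilized and 10.57 to 11.42 in knockout arrays on the log2 scale. For the B cell markers it was 8.98 to 9.16 and 10.04 to 10.50. In bulk lung RNA, fewer cells of a type and less RNA per cell cannot be told apart.

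The order of arrays within a group can be read beside these sums. In knockout replicates 1 to 4 the T and NK cell sums were 11.42, 10.86, 11.12 and 10.57 and the B cell sums 10.50, 10.37, 10.45 and 10.04, both in the order of Lef1, with replicate 1 highest and replicate 4 lowest. In stabilized replicates 1 to 4 the B cell sums were 9.16, 8.98, 9.16 and 9.10, again highest in replicates 1 and 3 and lowest in 2, as for Lef1. The T and NK cell sums of 9.79, 9.81, 10.16 and 10.06 had another order, with replicate 1 lowest where Lef1 was highest. The summed level of the cardiac muscle markers, 4 of 10 of which passed the test, was also lower in every stabilized array, at 11.69 to 11.83 against 11.98 to 12.41. The part of any of these cells in the Lef1 difference was not tested.

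**Figure D3:**
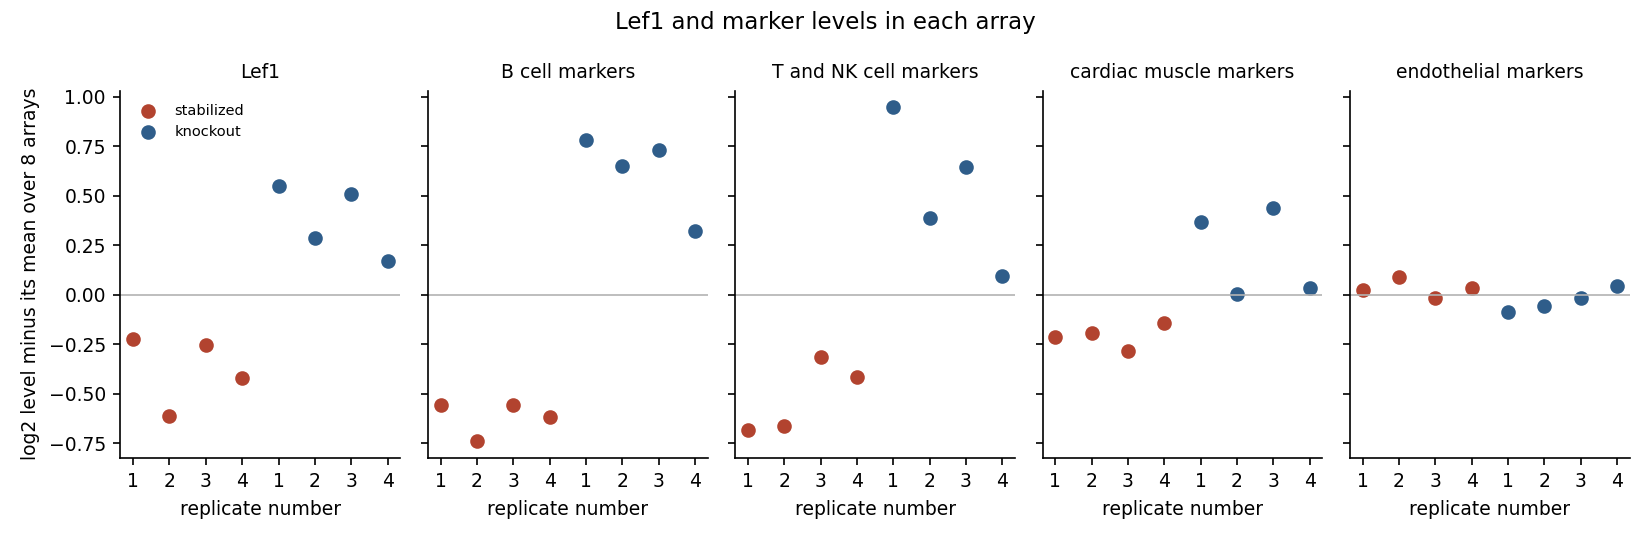
Points are log2 levels in each array minus the mean of the 8 arrays, for Lef1 and for the summed markers of 4 cell types (11 B cell, 14 T and NK cell, 10 cardiac muscle and 12 endothelial markers). Stabilized arrays (red) lie below knockout arrays (blue) for Lef1 and for B, T and NK and cardiac markers, while the endothelial sums overlap (13.67 to 13.78 against 13.60 to 13.73). The sums of ciliated and club cell markers, also lower in every stabilized array, are not drawn.

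Markers of other lung cells went in several directions. Endothelial markers had 0 of 12 past the limma test (2 at an unadjusted p under 0.05, median 0.05). Fibroblast markers had 3 of 10 higher and 0 lower (median 0.23), and mesothelial markers had 3 of 7 higher and 0 lower (median 0.18). Of airway epithelial markers, 10 of 12 ciliated and 10 of 10 club cell markers fell in stabilized lungs (medians -0.71 and -1.29). Beside these markers, the catenin genes Ctnnb1, Jup and Ctnnd1 overlapped between the groups, and Ctnna1 was higher in all stabilized arrays without passing the test. Of alveolar type 2 markers 8 of 11 were higher (median 0.31), and of alveolar type 1 markers 2 of 11 (median 0.09). Of 8 smooth muscle markers 0 passed the limma test (2 at an unadjusted p under 0.05, median 0.06).

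The genes whose pattern over the 8 arrays was most like that of Lef1 were Blk, Fcrl1 and Slfn8. Likeness was measured as the root mean square distance between log2 values after each gene was centred on its own mean, and these distances were 0.074, 0.0762 and 0.0805. Blk, a kinase of B cells that is among the B cell markers above, read 5.82, 5.61, 5.83 and 5.72 in stabilized and 6.72, 6.53, 6.58 and 6.20 in knockout replicates 1 to 4. Fcrl1, a receptor of B cells, read 5.16, 4.78, 5.13 and 5.07 and then 6.15, 5.78, 6.06 and 5.65. Slfn8 read 4.66, 4.41, 4.83 and 4.52 and then 5.65, 5.32, 5.43 and 5.05. In each of these genes, as in Lef1, stabilized replicate 2 was the lowest array of its group and knockout replicate 1 the highest. They were picked for closeness to Lef1 over the same 8 arrays, so a shared order is partly built in.

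Within the groups, some arrays were an extreme for several members, in both directions. Stabilized replicate 2 was the highest stabilized array for Ctnna1, Ctnnd1, Apc and Gsk3b and the lowest for Jup, Lef1 and Tcf7l1, so it was an extreme of its group in 7 of 10 genes, as it was in 64.0% of all genes. Knockout replicate 4 was an extreme in 8 of 10, against 51.4% of all genes. It was highest for Ctnnb1, Ctnna1, Ctnnd1 and Apc and lowest for Axin1, Lef1, Tcf7l1 and Tcf7l2. Knockout replicate 2 was an extreme in 2 of 10, against 44.4% of all genes. Whether the members vary together was not tested. Without stabilized replicate 2 the differences of Ctnna1 and Apc were 0.12 and 0.13 (limma adjusted p = 0.26 and 0.22).

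Around these genes, other catenins and their p120 relatives were represented by 9 genes, of which Ctnnd2 rose and 8 did not pass (median 0.10). That is 11.1% called, near the 9.62% of all genes. Ctnnd2, which encodes delta-catenin, a p120 relative best known from neurons, read 7.63, 7.51, 7.68 and 7.64 in stabilized and 7.19, 7.14, 7.31 and 7.27 in knockout replicates 1 to 4. The groups were apart in every array, and the difference of 0.39 ± 0.07 (SE with n = 4 per group, limma adjusted p = 0.0027) held in all 8 fits that left out 1 array. The alpha-catenin relative Ctnnal1 had a difference of 0.25 ± 0.09 (limma adjusted p = 0.12).

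Of 28 other proteins that govern beta-catenin turnover, 2 rose, 1 fell and 25 did not pass (median 0.05). This share, 10.7%, is near the 9.62% called over all genes. Dvl1, a Dishevelled protein that relays the receptor signal, was at 7.90 to 8.12 in stabilized and 7.72 to 7.84 in knockout arrays and rose by 0.27 ± 0.07. The kinase gene Csnk1d rose by 0.22 ± 0.06, and Frat1, whose product binds Gsk3 and keeps it from Axin, fell by 0.24 ± 0.07 (SE, limma adjusted p = 0.026, 0.041 and 0.039 in this order). Of the 8 fits with an array removed, 6 lost the call of Dvl1 and 7 lost those of Csnk1d and of Frat1. The count was 0 without stabilized replicate 1 or 3 or knockout replicate 1, 2 or 3, and 0 after repeated quantile normalization. With Xist as a covariate only Dvl1 of the 3 was called, and centring each array on its median ended the call of Frat1.

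Axin2, a scaffold and a common readout of the pathway, read 7.31, 7.32, 7.19 and 7.21 in stabilized and 7.35, 7.23, 7.13 and 7.09 in knockout replicates 1 to 4. The groups overlapped, with a difference of 0.06 ± 0.07 (SE, limma adjusted p = 0.67) and a 95% interval from -0.10 to 0.21. The knockout group was the more spread of the groups (SD of 0.12 against 0.07).

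Of 22 genes widely used as Wnt targets, Lef1 among them, 2 rose, 1 fell and 19 did not pass (median -0.03). Thus 13.6% were called, against 9.62% of all genes. Wif1, a secreted Wnt inhibitor, read 7.74, 8.24, 8.32 and 8.46 in stabilized and 7.28, 6.42, 7.34 and 7.52 in knockout replicates 1 to 4, and rose by 1.05 ± 0.21 (SE, limma adjusted p = 0.0075). Tnfrsf19, a receptor of the tumour necrosis factor family, was at 8.29 to 8.59 against 7.88 to 8.15 and rose by 0.35 ± 0.08 (SE, limma adjusted p = 0.018). The call of Tnfrsf19 was lost without stabilized replicate 1 or knockout replicate 3 (largest adjusted p = 0.061). Wif1 and Lef1, both in this list, thus moved in opposite directions.

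**Figure D4:**
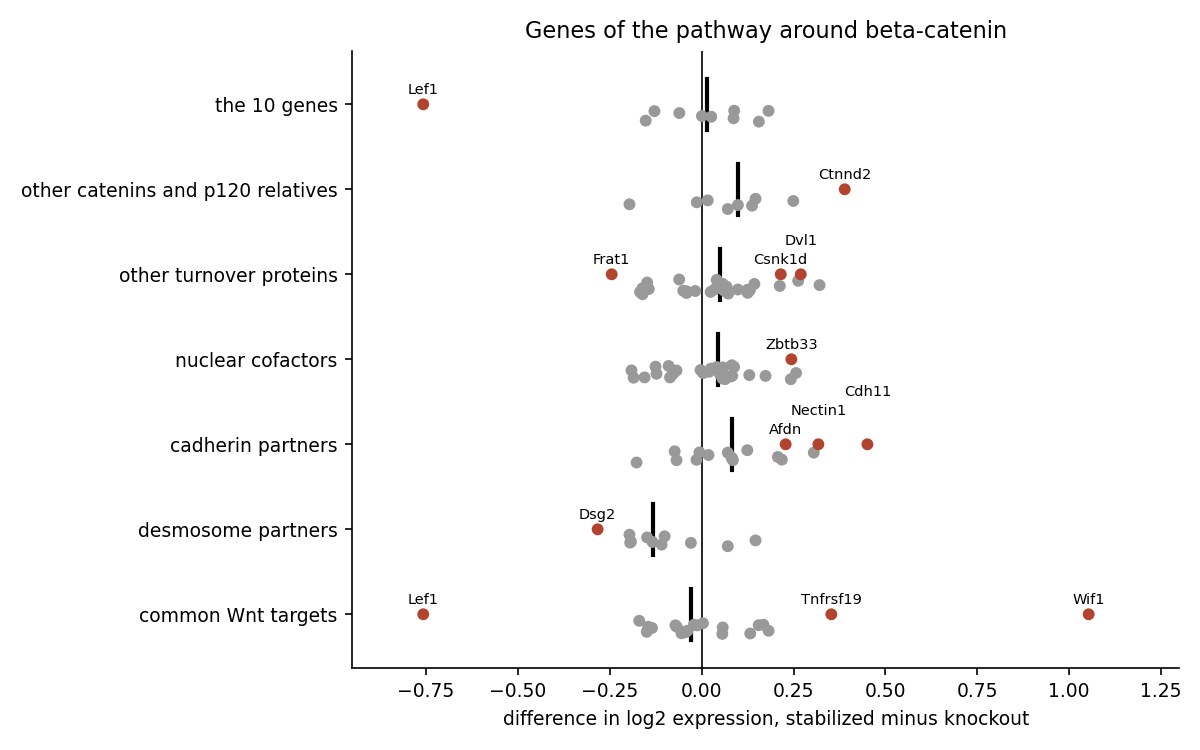
Each point is a gene, placed by its difference in log2 expression (stabilized minus knockout), for the 10 genes and 6 lists of pathway genes, with genes past the adjusted threshold in red and named, and the median of each list as a black bar. Most points lie within 0.25 of 0, and the largest differences are those of Lef1 at -0.76 and Wif1 at 1.05. Vertical offsets within a list only separate the points.

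Of 30 nuclear cofactors and antagonists of beta-catenin and TCF, 1 rose and 29 did not pass (median 0.04). The share called was 3.33%, below the 9.62% of all genes. The gene that rose was Zbtb33, which encodes Kaiso, a DNA-binding partner of p120-catenin. It was at 7.38 to 7.59 in stabilized and 7.17 to 7.28 in knockout arrays, a difference of 0.24 ± 0.07 (SE, limma adjusted p = 0.038). With an array removed the call was lost 7 of 8 times, and it was lost after repeated quantile normalization. The list had 0 genes called without stabilized replicate 1 or 4 or knockout replicate 2, 3 or 4.

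At the junctions where catenins sit, 3 of 17 cadherins and actin-linked partners rose, 0 fell and 14 did not pass (median 0.08). The share called was 17.6%, against 9.62% of all genes. Cdh11, a cadherin of mesenchymal cells, read 10.46, 10.39, 10.38 and 10.33 in stabilized and 9.74, 10.04, 10.03 and 9.94 in knockout replicates 1 to 4, and rose by 0.45 ± 0.08 (SE, limma adjusted p = 0.0025), a call kept in all 8 fits that left out 1 array. Nectin1, an adhesion receptor, and Afdn, which encodes afadin and links nectins to actin, rose by 0.32 ± 0.08 and 0.23 ± 0.06 (SE, limma adjusted p = 0.030 and 0.045), calls lost in 6 and 7 of those fits. The count fell to 1 without stabilized replicate 1 or 3 or knockout replicate 1 or 3 and after repeated quantile normalization, and Afdn was not called with Xist as a covariate. Of the fibroblast markers given above, 3 of 10 rose and 7 did not pass, and their summed levels overlapped (13.73 to 13.83 in stabilized and 13.56 to 13.75 in knockout arrays). Their part in the Cdh11 difference was not tested.

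The epithelial cadherin gene Cdh1 was at 9.92 to 10.11 in stabilized and 10.02 to 10.07 in knockout arrays, and the endothelial cadherin gene Cdh5 was at 11.14 to 11.21 and 11.15 to 11.34. Both were named for their cell types after the values were seen, both overlapped between the groups, and their differences were -0.01 ± 0.06 and -0.07 ± 0.06 (SE, limma adjusted p = 0.97 and 0.52). The transcripts of the main cadherins that beta-catenin binds in lung epithelium and endothelium thus showed no detectable difference, as did Ctnnb1. Other genes of this list lay nearer the threshold without passing it. Cdh2 had a difference of 0.31 ± 0.10 and Vcl, higher in all stabilized arrays, of 0.21 ± 0.06 (SE, limma adjusted p = 0.089 and 0.051).

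Of 11 desmosomal partners of plakoglobin, 1 fell, 0 rose and 10 did not pass (median -0.13). That is 9.09% called, near the 9.62% of all genes. Dsg2, a desmosomal cadherin, was at 5.49 to 5.64 in stabilized and 5.74 to 6.06 in knockout arrays and fell by 0.28 ± 0.08 (SE, limma adjusted p = 0.036). Its group means of 5.58 and 5.86 lie below the array medians, where background can compress differences. With an array removed the call was lost 6 of 8 times. The list had 0 genes called without stabilized replicate 1, 3 or 4 or knockout replicate 1, 2 or 3, and 0 with each array centred on its median or after repeated quantile normalization. Dsp, the plaque protein that binds plakoglobin, overlapped between the groups, with a difference of -0.11 ± 0.08 (limma adjusted p = 0.42).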

How the data were processed

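Expression was measured on 8 Affymetrix arrays, 4 per group. The authors deposited log2 expression values for 34760 probe sets, made with RMA and the affy package per the submitters' processing notes, which give no versions. RMA as usually defined subtracts background and applies quantile normalization, which hides global shifts. Arrays carry no read depth, and 4 arrays per group limit the precision. Platform annotation gave 1 symbol to 21640 probe sets, several to 1321 and none to 11799, and Entrez identifiers of 21553 were found in the RefSeq gene table. The probe set with the highest mean stood for each gene. No build is given for the probes.

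Groups were compared with limma 3.58.1 in R 4.3.3 (lmFit, eBayes, no covariate, no filter, total degrees of freedom 12.2), and the scripts were tested on simulated data. Intervals are limma's 95% intervals. Summed marker levels are the log2 of summed linear values. Permutation tests ran in Python 3.11.15. Of 121 entries in 6 pathway lists 117 matched, and of 119 entries in 11 marker lists 116 did. Pkp1, Pkp2 and Pkp3 stand in 2 lists, and so do Axin2 and a few others. The members and lists were chosen with earlier results of these data known. Named were all 10 members, Axin2, up to 6 called genes (or the gene of smallest p) per pathway list, the first gene of each marker list, the sex-linked genes and the 3 genes most like a called member. Cdh1, Cdh5, Cdh2, Vcl, Dsp, Ctnnal1 and the genes of the closing observations were added after their values were seen. Alternatives were centring, repeated quantile normalization, a filter (above 5 in at least 4 arrays), an intensity trend, array weights, averaged probe sets, Xist as a covariate, the replicate number as a block, and leaving out each array.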

Additional observations from a re-analysis of the deposited data

Results flagged for a closer look

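In knockout replicate 2, Jup read 10.15, apart from the other knockout arrays at 10.24 to 10.25, and the gap made up 0.899 of the group's range, above the critical value of Dixon's test. The distance is about 0.1 on the log2 scale. It was the 1 such array among 44 groups of 4 tested (22 genes), where chance gives about 1 in 20, or 2.2 such arrays, so the count is below that expected by chance.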

How the results depend on the processing

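Lef1 was the 1 member called under all 8 other settings of the model and all 8 fits without an array, with differences of -0.83 to -0.68. The genes called in all ranged from 1216 to 1839 when an array was left out and from 1717 to 2321 under the other settings. The sign of Axin1 turned with repeated quantile normalization (-0.01) and array weights (-0.0006), and without an array it ranged from -0.03 to 0.05. Gsk3b turned with repeated quantile normalization (-0.03), and without an array it ranged from -0.02 to 0.06. Ctnna1 (0.16) and Apc (0.18) reached an unadjusted exact permutation p of 0.029 but were called by limma in no setting. Same-numbered arrays showed no clear sign of pairing, which the replicate labels do not state (correlations of same-numbered deviations from -0.005 to 0.084). With the replicate block 1828 genes were called, and Lef1 stayed at -0.76 (limma adjusted p = 3.1e-04), but Csnk1d, Frat1, Afdn, Zbtb33 and Dsg2 were not called, which left 1 turnover protein, 2 cadherin partners, 0 nuclear cofactors and 0 desmosome partners. Pathway list counts moved with the settings, from 0 to 5 for turnover proteins, 0 to 3 for nuclear cofactors, 1 to 5 for cadherin partners and 0 to 1 for desmosome partners, and the cause was not tested. The number of arrays limits what could be seen, with SEs of 0.06 to 0.10 for the 10 genes.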

Other observations

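The ubiquitin ligase that removes phosphorylated beta-catenin, built on the cullin Cul1 with the adaptor Skp1, the RING protein Rbx1 and the F-box proteins Btrc or Fbxw11, was examined after the values of these genes were seen. None of the 5 genes passed the limma test, and 2 had an unadjusted p under 0.05, as 24.7% of all genes did. Cul1 read 9.14, 9.38, 9.06 and 9.02 in stabilized and 8.97, 8.93, 8.81 and 8.84 in knockout replicates 1 to 4, with no overlap (0.26 ± 0.08, SE, limma adjusted p = 0.069). Skp1 read 8.88, 9.37, 8.69 and 8.81 and then 8.58, 8.65, 8.46 and 8.79, which overlap, with a difference of 0.32 ± 0.13 (SE, limma adjusted p = 0.14). Stabilized replicate 2 was the highest array for both genes, as it was for Apc and Gsk3b. Rbx1, Btrc and Fbxw11 had differences of 0.10 ± 0.06, 0.04 ± 0.06 and 0.13 ± 0.07 (SE). Ppp2ca, the catalytic subunit of a phosphatase that acts on the pathway, was at 10.40 to 10.50 in stabilized and 10.13 to 10.28 in knockout arrays, just short of the threshold (0.21 ± 0.06, limma adjusted p = 0.052). It was called in 0 of the 8 fits without an array and in 4 of the 8 other settings. Ppp2r1a, another subunit of this phosphatase, had a difference of -0.02 ± 0.07 (SE, limma adjusted p = 0.90).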
